A study of Mus musculus with 6 samples.

Results

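The measurements below describe ribosome-bound messenger RNA from S100a10 cells of the mouse cerebral cortex without drug treatment, taken from the 3 vehicle arrays of a series of 6. The vehicle arrays were chosen by their titles, the other 3 arrays being from fluoxetine-treated mice. The mice carried the S100a10 bacTRAP transgene, line ES691, and had been crossed from FVB onto C57BL/6 over 3 to 5 generations. Vehicle mice drank 1% saccharine for 15 to 18 days, and the fluoxetine group drank the same solution with 0.167 mg/ml of the drug, so every animal carried the transgene and received saccharine. Each array was a biological replicate by its label. The labels leave unsaid whether a replicate was 1 animal or a pool, and p-values therefore measure only the spread between these 3 samples.

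In a bacTRAP line, a bacterial artificial chromosome carrying the control region of one gene drives a tagged ribosomal protein. Affinity purification of the tag recovers polysomes, and the RNA on them, from the cells that use that control region. S100a10 encodes p11, a small EF-hand protein that forms a complex with annexin A2 and is known for carrying membrane proteins, among them some serotonin receptors, to the cell surface. In the cortex p11 is best known in pyramidal cells of layer 5, and it is also made outside neurons. By the submitters' account this transgene is also active in some cells other than neurons, and they advise a selection of probe sets that was not used here. RNA of whole cortex was not analysed here, so the values are levels in the purified RNA and not enrichment over the tissue. In a bulk sample, fewer cells of a type and less RNA per cell cannot be told apart.

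Levels spanned almost the whole range of the arrays and fell into a low and a high group of genes. Intensities ran from 1.75 to 99076, or 0.807 to 16.596 on the log2 scale used from here on. The array medians were 47.6, 47.9 and 48.3 and their upper quartiles 528, 574 and 516. A probe set, the group of probes that measures 1 transcript, was called above or below an intensity of 50 (log2 5.644), the level the submitters advise, where its mean over the 3 arrays differed from that level in limma's moderated test (two-sided, Benjamini-Hochberg adjusted p under 0.05 over all probe sets). Of 45037 probe sets, 21211 (47.1%) were above, 21639 (48%) below and 2187 (4.86%) unresolved. Of 18193 genes, each represented by its brightest probe set, 11842 (65.1%) were above, 5565 (30.6%) below and 786 (4.32%) unresolved. These shares are the background for every count that follows. Genes above 50 varied little between arrays, with a median SD of 0.143. The probes of different genes bind with different strength, so the order of genes is an order of signal and only roughly one of message number.

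**Figure D1:**
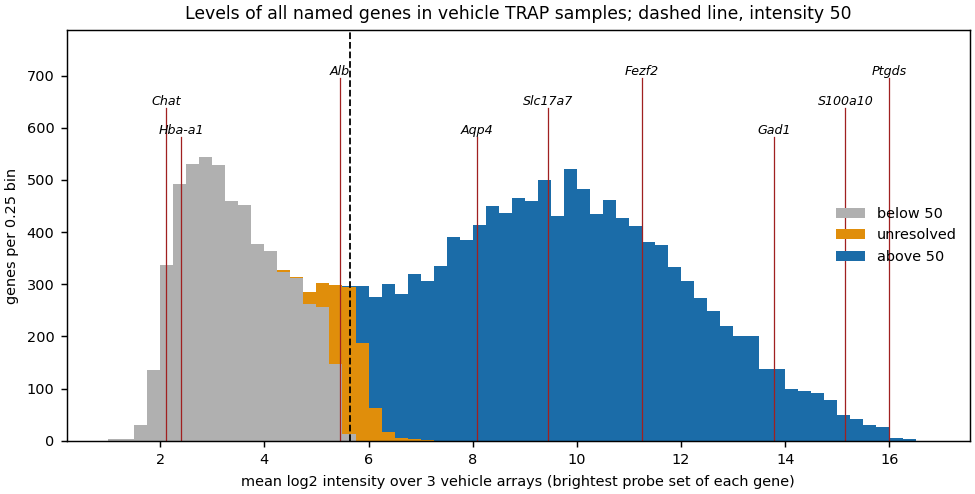
Histogram of the mean log2 intensity over 3 vehicle arrays for each of 18193 genes, in bins of 0.25, with colours for genes called above, below or unresolved against an intensity of 50 (dashed line). Red lines mark single genes: Hba-a1 and Chat sat in the low peak, Alb just under the level, and Gad1, S100a10 and Ptgds in the upper tail.

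Genes of organs other than brain gave a measure of how often a signal above 50 appeared where little message is known to be made. Of 153 measured genes from liver, muscle, gonad, gut and pancreas, skin, mammary gland and eye, and the olfactory, vomeronasal and taste receptors, 15 (9.8%) were above 50. The share differed between the kinds of gene, with 13 of 77 genes of other organs above (16.9%) and 2 of 76 chemoreceptor genes (2.63%). Of 39 olfactory receptor genes 36 were below, 3 unresolved and 0 above by limma's test, and Alb, the albumin gene of liver, read 5.50, 5.47 and 5.38. The haemoglobin gene Hba-a1, which marks red blood cells, read 2.43, 2.29 and 2.51, within the lowest values on the arrays. The genes from other organs above 50 were Krt10 (11.03), Lor (10.56), Acta1 (10.45), Tnnt2 (9.95), Cela1 (9.02), Myh7 (8.61), Vmn2r29 (8.09), Vmn1r44 (7.67), Lct (6.89), Ddx4 (6.88), Dazl (6.39), Prm1 (6.34), Krt5 (6.27), Apoa2 (6.03) and Apoc3 (6.00), in mean log2 intensity. These ranged from just over the level to the values of the keratin gene Krt10, the cornified envelope gene Lor and the skeletal actin gene Acta1. Tnnt2 was under the level by its plain probe set, at 3.24.

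S100a10 was among the highest genes of the purified RNA. Its brightest probe set read 15.07, 15.22 and 15.17 on the 3 arrays, a mean of 15.15 ± 0.073 (log2 intensity, mean ± SD, n = 3, as for all values with ± that follow) and rank 127 of 18193 genes, and was above 50 (limma adjusted p = 5.69e-06). Its level depended on the probe set. A second one read 11.91, 12.28 and 12.06, which placed S100a10 at rank 1307 of 16591 genes by plain probe sets, whose names carry no suffix for probes that match further sequences, and the remaining one was below 50 at 4.89, 4.79 and 4.82. All 8 measured members of a list of p11 and the annexins and scaffolds around it were above 50. Anxa2, whose protein forms the p11 complex, read 13.31, 13.43 and 13.32, although by plain probe sets it was below 50 at 2.61. The calcium-dependent membrane-binding annexins Anxa5 (13.29 ± 0.11) and Anxa1 (13.21 ± 0.12) were close to it. Ahnak, the gene of a very large scaffold that binds the complex, measured 10.54 ± 0.16 and Hltf, a chromatin remodelling factor reported to bind it, 9.33 ± 0.61.

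Members of the S100 family, small calcium-binding proteins, lay on both sides of the level. Of 13 measured members 7 (53.8%) were above 50, near the 65.1% of all genes, and 6 were below. After S100a10 came S100a1 (13.33 ± 0.12), S100a16 (12.87 ± 0.15), the astrocyte and oligodendrocyte gene S100b (11.87 ± 0.10) and S100a6 (11.73 ± 0.31). S100a13 (9.04 ± 0.22) and S100a4 (8.33 ± 0.29) were lower. The neutrophil genes S100a8 (4.60 ± 0.19) and S100a9 (3.45 ± 0.30) were below 50, as were S100a14, S100g, S100a5 and S100a3. Of the 6 neighbouring pairs in this order among members above 50, 1 had overlapping array values.

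**Figure D2:**
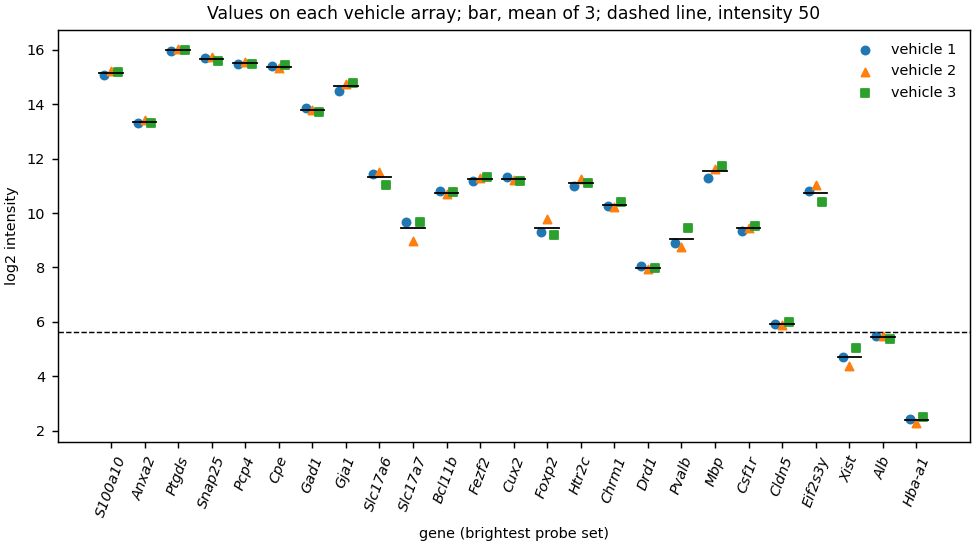
Log2 intensity of 25 genes on each vehicle array, with a bar at the mean of 3 and a dashed line at an intensity of 50. The 3 arrays gave nearly the same value for S100a10, Ptgds, Pcp4 and Cpe and differed most for Slc17a7, Foxp2, Pvalb, Eif2s3y and Xist among those drawn.

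The brightest signals came from genes of many functions, and which genes these were depended on the probe sets used. The 30 highest genes, by the brightest probe set, were headed by Cfl1, which encodes the actin-severing protein cofilin, at 16.47, 16.48 and 16.50. Next were Rps29, a protein of the small ribosomal subunit, at 16.28, 16.39 and 16.37, and the aldehyde reductase gene Akr1a1 at 16.28, 16.33 and 16.34. Array values overlapped in 26 of the 29 neighbouring pairs of this order, so most ranks were not resolved. Cytoskeletal and transport genes among the 30 were Fscn1 (16.04), which bundles actin, Stmn3 (16.01), a microtubule regulator of neurons, Dynll1 (15.98), a dynein light chain, and the tubulin gene Tuba1a (15.85). Energy metabolism was represented by the mitochondrial genes Atp5h (15.99), Cox6a1 (15.95) and Cox6b1 (15.87), by Mdh1 (15.96), cytosolic malate dehydrogenase, and by the glycolytic gene Tpi1 (15.85). Protein synthesis, folding and breakdown accounted for Rps29, Rpl13a (15.90), Rps28 (15.85), the chaperone gene Hspa8 (16.02), the proteasome gene Psmb4 (15.94) and the ubiquitin ligase adaptor gene Ndfip1 (15.998).

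Other members of the 30 belonged to signalling or to particular cells. They included Prkar1b (15.99), a regulatory subunit of protein kinase A found mainly in the nervous system, Ywhab (15.92), a 14-3-3 protein, Pebp1 (15.94), an inhibitor of Raf signalling, and the neuronal membrane glycoprotein gene Gpm6a (15.97). Ptgds, prostaglandin D synthase, known in the brain from meninges, choroid plexus and oligodendrocytes, read 15.94, 16.03 and 15.99, and Dbp, a transcription factor of the circadian clock, 15.76, 15.86 and 15.93. The remaining 7 were Hint1, Tsc22d1, Mff, Klhdc2, Sod1, Ndrg4 and Atp6v1g1, from 15.85 for Atp6v1g1 to 16.24 for Hint1. Together the 30 held 5.03% of the summed intensity of all genes.

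Which genes headed the order depended on the kind of probe set. In the names of Affymetrix probe sets, the suffixes _a, _s and _x mark sets whose probes also match other transcripts of the gene, transcripts of other genes, or other sequences in part. Of the 30 highest genes, 29 had such a set as their brightest, although 77.2% of the named probe sets were plain, and 10 of the 30 had no plain set. With plain probe sets only, 2 of the 30, Ndfip1 and Ptgds, stayed among the highest 30, and 15 stayed in the highest 10%. Cfl1 measured 9.69 by its plain probe set. Hspa8 (4.03) and Mff (2.10) were under the level of 5.644 by theirs, and Tsc22d1 (5.64) was barely under it. When the probe sets of a gene were averaged, none of the 30 stayed among the highest 30.

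By plain probe sets other genes headed the order. After Ndfip1 and Ptgds came Snap25, a core protein of synaptic vesicle fusion, at 15.71, 15.75 and 15.57, and Rtn4, which encodes the reticulon Nogo, at 15.61, 15.61 and 15.59. Pcp4, a calmodulin regulator and a marker of layer 5, read 15.49, 15.56 and 15.49 and ranked 6 of 16591. Cpe, carboxypeptidase E, which processes peptide hormones in the regulated secretory pathway, read 15.39, 15.35 and 15.43. The calcium sensor gene Vsnl1 (14.95), the growth cone gene Basp1 (15.11), Pfn2 (15.29), a profilin of neurons, Ppp3cb (15.02), a catalytic subunit of calcineurin, Kalrn (14.97), a nucleotide exchange factor of dendritic spines, and Rab6b (14.99), a Golgi GTPase of neurons, were also among these 30. Oxidative phosphorylation genes were again present, as Atp5g3 (15.45), Cycs (15.11) and Cyc1 (14.95), and so was the elongation factor gene Eef1a1 (15.44). Zwint, a kinetochore gene also made in neurons, ranked 5 at 15.56, and Klc1, Serinc1, Hcfc1r1, Osbpl1a, Tspan13, Norad, Ywhah, Rab1a, Tmsb4x, Mrfap1, R3hdm1, Ttc3 and Ndn made up the rest.

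Messages of the translation and energy machinery were high as groups. Of 47 ribosomal protein genes, 42 were above 50 and 34 in the highest 10% of all genes, with a median of 14.54. Of 81 nuclear genes of oxidative phosphorylation, 74 were above and 64 in the highest 10% (median 14.35), and of 39 proteasome genes 37 were above and 23 in the highest 10% (median 13.05). The 3 ribosomal protein genes below 50 included Rps16 (1.90) and Rpl12 (2.88), and the 5 of oxidative phosphorylation included Cox7c (2.99) and Ndufb4 (3.395). Here and in the counts that follow, a low reading describes the probe set, and whether the message was absent was not tested. The highest 10% began at 12.355, and the median of all genes was 8.079. Among 13 tubulin genes 10 were above, led by Tuba1a, Tubb2a (15.50 ± 0.027) and Tuba4a (15.27 ± 0.042). Tubb1, the tubulin of platelets, was below at 2.14 ± 0.023.

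Vertebrate ribosomal protein messages are known for a run of pyrimidines at their first base, through which growth signalling regulates their translation. The starts of the 6 highest ribosomal protein genes with an entry in RefSeq's promoter table (GRCm38.p6) are shown because these messages were high as a group. By plain probe sets Rpl35 (2.41) and Rpl41 (4.57) were under the level. Each sequence holds 15 bases either side of the annotated start. Capitals mark a run of at least 5 C or T, counted from the first C within 5 bases of that start that opens one. Any C or T before that point stays in small letters, as in Rpl35 and Rplp2, so the capitals can be part of a longer run.
Rpl13a: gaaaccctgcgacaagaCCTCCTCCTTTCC
Rps28: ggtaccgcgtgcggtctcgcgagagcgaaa
Rps4x: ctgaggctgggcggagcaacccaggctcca
Rpl35: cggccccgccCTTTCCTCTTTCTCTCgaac
Rplp2: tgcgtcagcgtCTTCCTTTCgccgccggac
Rpl41: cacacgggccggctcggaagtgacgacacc
The Rpl13a window lies at chr7:45128731-45128760 on the minus strand, that of Rpl35 at chr2:39005117-39005146 on the minus strand and that of Rplp2 at chr7:141447636-141447665 on the plus strand. The windows without such a run lie at chr17:33824548-33824577 for Rps28, chrX:102189377-102189406 for Rps4x and chr10:128549154-128549183 for Rpl41, all on the minus strand. Each window spans the annotated start and so holds the promoter's end and the first bases of the first exon.

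Over the whole group, 20 of 41 ribosomal protein genes with an entry (48.8%) had the run, read on the gene's strand, against 19.9% of 14452 genes on the array with an entry. The share was 31.8% among oxidative phosphorylation genes and 19.7% in the highest 10% of all genes. Genes above and below 50 had it about equally often, at 20.2% and 19.2%. They differed in other features of the window, which runs from 250 bases before the start to 50 after it. The letters TATAAA, searched on the gene's strand between 45 and 15 bases before the start, occurred in 1.25% of genes above 50 and in 5.64% of genes below it, against 2.61% of all. The median number of CG pairs was 21 above and 5 below. Only the first entry of a gene was read, and a match or its absence describes these letters and nothing bound to them.

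Genes of transmitter release and of the synapse were almost all above 50. Of 28 measured genes of synaptic vesicles and release, 27 were above, against 65.1% of all genes, and 1, Sv2c, was below at 3.73 ± 0.25. Snap25 led, followed by its partner in the fusion complex, Stx1a (14.97, 15.01 and 15.01), and Cplx1 (14.74, 14.76 and 14.81), a clamp of that complex. The calcium sensor of fast release, Syt1, measured 14.51 ± 0.034, and Syt2, the sensor of a subset of fast inhibitory and hindbrain neurons, 7.17 ± 0.34. Of 26 genes of postsynaptic scaffolds and adhesion, 25 were above 50. Homer1 led at 14.05, 13.96 and 13.86, followed by the adhesion gene Lrrtm1 (13.33 ± 0.083) and Dlg1 (13.13 ± 0.10), which encodes SAP97. Dlg4, the gene of PSD-95, measured 8.26 ± 0.14, and Shank1 was below 50 at 3.04 ± 0.26.

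Secretory genes were high and most peptide precursors moderate. Of 27 measured genes of neuropeptides and secreted signals, 26 were above 50. Behind Cpe came the granule proteins Chgb (14.92, 14.93 and 14.73) and Scg5 (13.86 ± 0.093). Cck, the precursor of cholecystokinin, which pyramidal and some inhibitory cells make, was the highest precursor at 13.69, 13.74 and 13.83. The interneuron peptides Npy (11.54 ± 0.35), Sst (10.91 ± 0.41), Tac1 (10.14 ± 0.16) and Vip (10.09 ± 0.023) and the stress peptide gene Crh (10.51 ± 0.14) ran from 10.09 to 11.54. Bdnf, the neurotrophin, measured 7.14 ± 0.35, and the dynorphin precursor Pdyn 6.11 ± 0.18, the lowest of those above. Of 25 neighbouring pairs in this order, 19 had overlapping array values.

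Ionotropic glutamate receptors carry fast excitation. All 4 AMPA receptor genes were above 50, in the order Gria2 (13.37, 13.19 and 12.48), Gria3 (12.40, 12.09 and 11.39), Gria1 (11.66, 11.43 and 11.30) and Gria4 (10.13, 10.21 and 9.79). Vehicle 3 was the lowest array for all 4, and Gria3 and Gria1 overlapped. Of 6 NMDA receptor genes, Grin2b (8.64, 8.92 and 8.56), Grin3a (7.33, 7.402 and 7.55) and Grin2d (6.07, 6.03 and 6.01) were above. Grin2a, a main subunit of adult cortex, had 1 probe set, which read 1.98, 1.94 and 1.95, among the lowest values on the array. Grin3b and Grin2c were also below. A low reading describes that probe set. Other genes had probe sets at both extremes. Of 6 kainate and delta receptor genes, Grid1 (9.60 ± 0.031), Grik3 (8.95 ± 0.21), Grik1 (8.74 ± 0.24), Grik5 and Grik2 were above and Grik4 unresolved. Grik1 was below the level, at 2.78, by its plain probe set.

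Metabotropic glutamate receptors act through G proteins. Grm3 (12.76, 12.52 and 11.97) was highest, followed by Grm7 (11.76 ± 0.13), Grm5 (10.75 ± 0.25), Grm2 (10.33 ± 0.11) and Grm4 (7.75 ± 0.15), with none of these neighbouring pairs overlapping, and Grm8 was unresolved. For inhibition, 8 of 15 GABA-A receptor genes were above 50. Gabra4 (12.96, 12.85 and 12.48) and Gabrb2 (11.88, 12.07 and 11.14) led, and the tonic receptor subunits Gabra5 (10.70 ± 0.17) and Gabrd (10.001 ± 0.058, but 4.81 by its plain probe set) were also above. Gabra6, a subunit of cerebellar granule cells, was below at 3.52 ± 0.23, with Gabrr1, Gabrp, Gabre, Gabrr2 and Gabrq. Gabbr1, of the metabotropic GABA-B receptor, measured 13.18 ± 0.029 and the glycine receptor subunit Glrb 14.02 ± 0.15, while Glra1, the spinal subunit, was below at 3.29 ± 0.088.

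Of 13 measured serotonin receptor genes, 7 were above 50, 4 below and 2 unresolved. Htr2a was not among these 13, so the order leaves it out. Htr2c was the highest of the 13 at 11.001, 11.25 and 11.11, with all its arrays above those of Htr1b (8.93, 8.90 and 8.89). The second probe set of Htr2c was below 50 at 3.998, 3.25 and 3.56. Htr7 (8.47 ± 0.19), Htr5a (8.18 ± 0.085), Htr1a (7.90 ± 0.10), Htr1f (7.38 ± 0.50) and Htr3a (6.77 ± 0.085) followed. When a gene's probe sets were averaged, 3 serotonin receptor genes were above, and Htr7, Htr5a and Htr1a were under the level. Of the catecholamine receptors, the dopamine receptor gene Drd1 (8.04, 7.94 and 7.97) was above, Drd2 (4.74 ± 0.57), Drd3 and Drd4 were below, and of 2 adrenergic receptor genes Adra2c (6.17 ± 0.063) was above.

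Acetylcholine acts on muscarinic and nicotinic receptors. Chrm1, the main muscarinic receptor of cortical pyramidal cells, read 10.25, 10.23 and 10.42, while Chrm3 (2.23 ± 0.18) and Chrm4 (2.02 ± 0.014) were below. Of 15 nicotinic receptor genes, 4 (26.7%) were above, namely Chrna7 (10.02 ± 0.17), Chrnb2 (9.96 ± 0.14), Chrna4 (7.503 ± 0.085) and Chrna3 (6.15 ± 0.16). The first 3 of these form the main nicotinic receptors of the forebrain, and the array values of Chrna7 and Chrnb2 overlapped. Chrna1, Chrnd, Chrng and Chrne, the muscle subunits, were below, and Chrnb1, another muscle subunit, was below at 5.33 ± 0.029. Of 4 histamine receptor genes 3 were above, with Hrh1 (9.62 ± 0.09) and Hrh3 (9.29 ± 0.15) highest. Purine receptors were above in 3 of 16 cases (18.8%), with P2rx4 highest at 11.10 ± 0.14 (4.96 by plain probe sets), and opioid receptors in 1 of 4, Oprl1 at 10.02 ± 0.053. The opioid receptor genes Oprm1 (4.24 ± 0.26), Oprk1 and Oprd1 were below. The cannabinoid receptor gene Cnr1 read 13.09, 12.99 and 12.80, and Cnr2, of immune cells, 3.56 ± 0.043.

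Among 41 receptors for peptides, 20 (48.8%) were above 50 and 18 below. Cckbr, the brain receptor for cholecystokinin, was the highest at 11.54, 11.55 and 11.73, ahead of the somatostatin receptor Sstr4 (10.93 ± 0.26), the tachykinin receptor Tacr3 (10.28 ± 0.14) and the PACAP receptor Adcyap1r1 (10.22 ± 0.11). Crhr1 measured 9.36 ± 0.031, Oxtr, the oxytocin receptor, 6.59 ± 0.18, and Npy1r 7.56 ± 0.23. Cckar, the receptor of gut and brainstem, was below at 3.44 ± 0.23, as were the melanocortin receptors measured. Of 17 receptors for growth factors, 14 were above, with the BDNF receptor Ntrk2 highest at 12.97, 13.04 and 12.89. Erbb4, known from inhibitory cells, was below at 4.23 ± 0.26, and Met, a receptor of some pyramidal cells, was above at 8.92 ± 0.17.

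**Figure D3:**
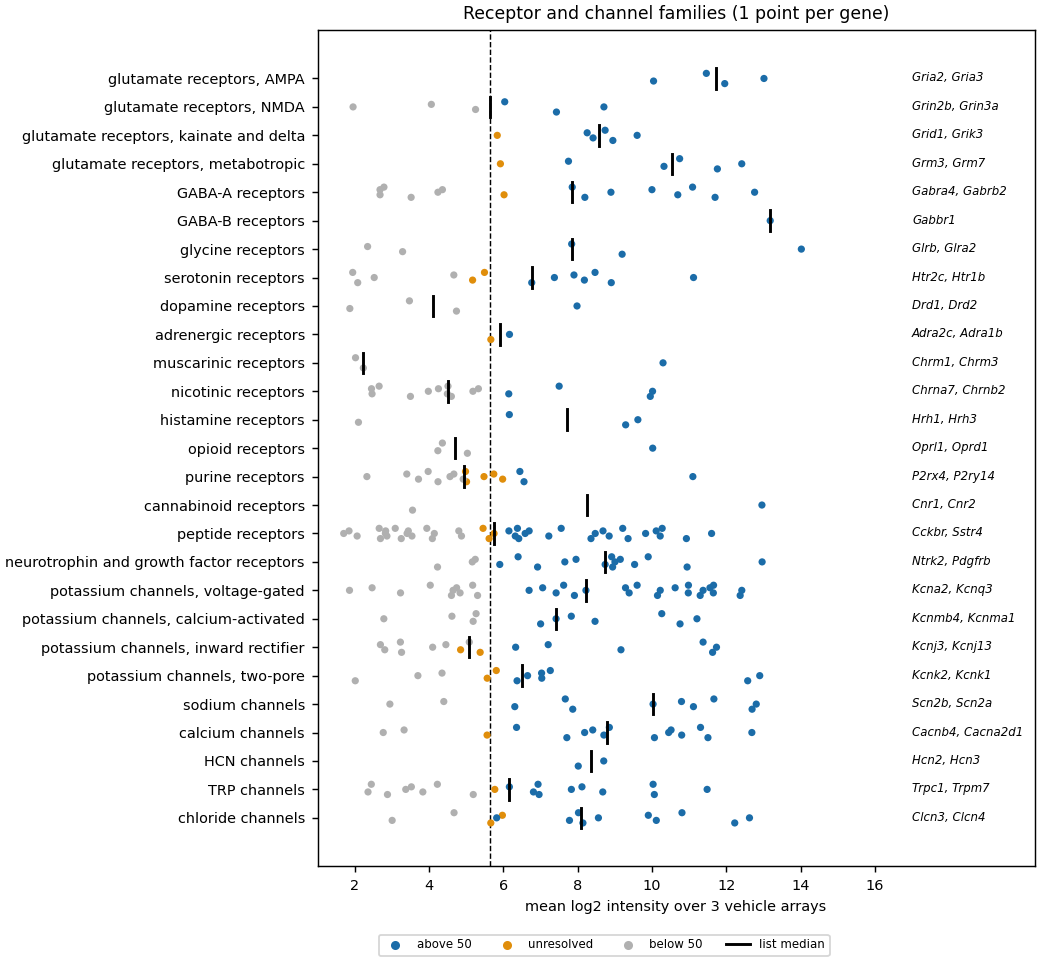
Mean log2 intensity over 3 vehicle arrays for each gene of the receptor and channel families, with colours for the call against an intensity of 50 (dashed line), a black bar at the family median, and the highest genes named at right. AMPA receptors, HCN channels and the GABA-B receptor gene measured lay wholly above the level. Dopamine, muscarinic, nicotinic, opioid, purine, peptide and inward rectifier families had most members below it or unresolved.

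Ion channel genes were above 50 about as often as all genes, 85 of 131 over 9 families (64.9%, against 65.1%). Of 31 voltage-gated potassium channel genes, 21 (67.7%) were above 50, led by Kcna2 (12.51, 12.58 and 12.17), of axons, and Kcnq3 (12.43, 12.62 and 12.07), a subunit of the M current. Kcnd2 (11.66 ± 0.18), of dendritic A currents, and the silent subunit gene Kcnf1 (11.65 ± 0.044) followed. Kcnc2 (11.30 ± 0.093) and Kcnc1 (10.98 ± 0.13), channels of fast-spiking cells, were above too. Kcnq1, of heart and epithelia, was below at 4.84 ± 0.22. Of 15 inward rectifiers 6 (40%) were above, with the G protein-gated genes Kcnj3 (11.91, 11.71 and 11.59) and Kcnj9 (11.29, 11.35 and 11.49) near the top. Kcnj13, known from choroid plexus and other epithelia, read 11.43, 11.67 and 11.80 between them. Kcnj8, of pericytes, was below at 4.45 ± 0.27. The leak channel genes Kcnk2 (12.90 ± 0.15) and Kcnk1 (12.58 ± 0.18) stood far above the next member of their family, Kcnk3 (7.26 ± 0.18).

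Sodium and calcium channels were above 50 in most cases. Of 11 sodium channel genes 9 were above, with the subunits Scn2b (12.72, 12.83 and 12.87), Scn2a (12.79, 12.92 and 12.38), Scn1a (11.72, 11.88 and 11.41) and Scn8a (11.10, 11.24 and 11.01) highest. Scn2b and Scn2a overlapped. Scn9a and Scn10a, of sensory neurons, were below at 4.398 ± 0.55 and 2.95 ± 0.31. Of 16 calcium channel genes 13 were above, with the auxiliary subunit genes Cacnb4 (12.69 ± 0.50), Cacna2d1 (11.51 ± 0.37) and Cacna2d3 (11.31 ± 0.13) ahead of the pore genes Cacna1b (10.80 ± 0.43) and Cacna1e (10.51 ± 0.34). Cacna1s, of skeletal muscle, and Cacna1f, of retina, were below at 3.33 ± 0.25 and 2.77 ± 0.057. Both measured HCN channel genes, Hcn2 (8.73, 8.58 and 8.80) and Hcn3 (8.17, 7.69 and 8.19), were above. Of 11 calcium-activated potassium channel genes 7 were above, with Kcnmb4 (11.21 ± 0.10) and the pore gene Kcnma1 (10.76 ± 0.37) highest, and of 14 chloride channel genes 10, with the endosomal exchanger genes Clcn3 (12.63 ± 0.20) and Clcn4 (12.23 ± 0.12) highest. Of 19 TRP channel genes 10 were above, led by Trpc1 (11.49 ± 0.091), and the sensory channels Trpv1 (2.45 ± 0.063), Trpm8 and Trpa1 were below.

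Markers of excitatory cortical neurons were all above 50, 15 of 15 measured. The transcription factor gene Mef2c led at 14.95, 15.02 and 14.72, followed by Arpp21 (14.16 ± 0.12), Nrn1 (13.79 ± 0.20) and Chn1 (13.76 ± 0.25). Neurod6, of pyramidal neurons, measured 12.56 ± 0.15. The vesicular glutamate transporter genes, which load the transmitter, read 11.43, 11.50 and 11.02 for Slc17a6 and 9.68, 8.95 and 9.69 for Slc17a7. The second is the main cortical transporter, and its 1 probe set was lowest on vehicle 2. A second probe set of Slc17a6 read 9.83, 9.13 and 6.01 and was unresolved.

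Layer markers were present for every layer tested. Of 20 layer 5 markers 18 (90%) were above 50 with a median of 10.04, of 20 markers of layers 2 to 4 there were 16 (80%) with a median of 9.25, and of 16 layer 6 markers 14 (87.5%) with a median of 8.84. Over all genes the share was 65.1% and the median 8.079. The ranges of the 3 layer lists overlapped almost completely, as the plot of marker lists shows. In layer 5, Pcp4 stood apart at the top, followed by Sulf2 (12.01, 12.04 and 12.19), a sulfatase of the cell surface. Fezf2 (11.17, 11.27 and 11.31) and Bcl11b (10.80, 10.69 and 10.78), the factors that specify subcerebral projection neurons, were close to each other, and so were Crym (11.18 ± 0.12), Ldb2 (10.63 ± 0.057) and Bcl6 (10.59 ± 0.15). Dkkl1 (11.30 ± 0.034), the mTOR inhibitor gene Deptor (10.25 ± 0.19) and Tcerg1l (8.39 ± 0.045) were above, while Lratd2 (5.01 ± 0.32) and Chrna6 (3.50 ± 0.10) were below. Of 17 neighbouring pairs in the order of layer 5 markers, 9 had overlapping array values.

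Of the upper layer markers, the calcium buffer gene Calb1 (13.03, 13.05 and 13.08) and the lysosomal membrane gene Lamp5 (12.84, 12.65 and 12.71) were highest, both also made by inhibitory cells. The homeobox gene Cux2 (11.32, 11.21 and 11.19) was at the level of Fezf2. Rorb, of layer 4, measured 10.32 ± 0.57, and Scnn1a, of the same layer, 8.26 ± 0.093. Inhba (5.28 ± 0.15) and Mdga1 (3.54 ± 0.024) were below. In layer 6, Ccn2, of layer 6b and also of vessels and fibroblasts, led at 13.13, 13.53 and 13.45. The corticothalamic genes Tle4 (10.18 ± 0.095), Foxp2 (9.44 ± 0.31) and Ntsr1 (7.23 ± 0.48) were above, and Syt6 (3.70 ± 0.17) and Nxph4 (3.82 ± 0.15) below.

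Of 27 measured markers of inhibitory neurons 19 (70.4%) were above 50, with a median of 8.08, both close to the values of all genes (65.1% and 8.079). Gad1, which makes GABA, read 13.85, 13.78 and 13.71, higher than all layer markers except Pcp4, and Gad2 read 9.46, 9.39 and 8.89. The vesicular GABA transporter gene Slc32a1 measured 10.08 ± 0.21. Of the class genes, Sst, Vip, Npy, Pvalb (8.90, 8.76 and 9.45) and Lhx6 (8.75 ± 0.43) were above, and Sp8, Prox1, Dlx6, Nkx2-1 and Chat (2.12 ± 0.014), with Erbb4, were below. Array values overlapped in 14 of 18 neighbouring pairs. Markers of striatal projection neurons, cells next to the cortex, were above in 9 of 11 cases, with Rasd2 (12.38 ± 0.14) and Pde10a (10.93 ± 0.32) highest. Ppp1r1b (9.32 ± 0.11), also of deep cortical layers, and Penk (9.51 ± 0.25) were above, and Drd2 was below.

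**Figure D4:**
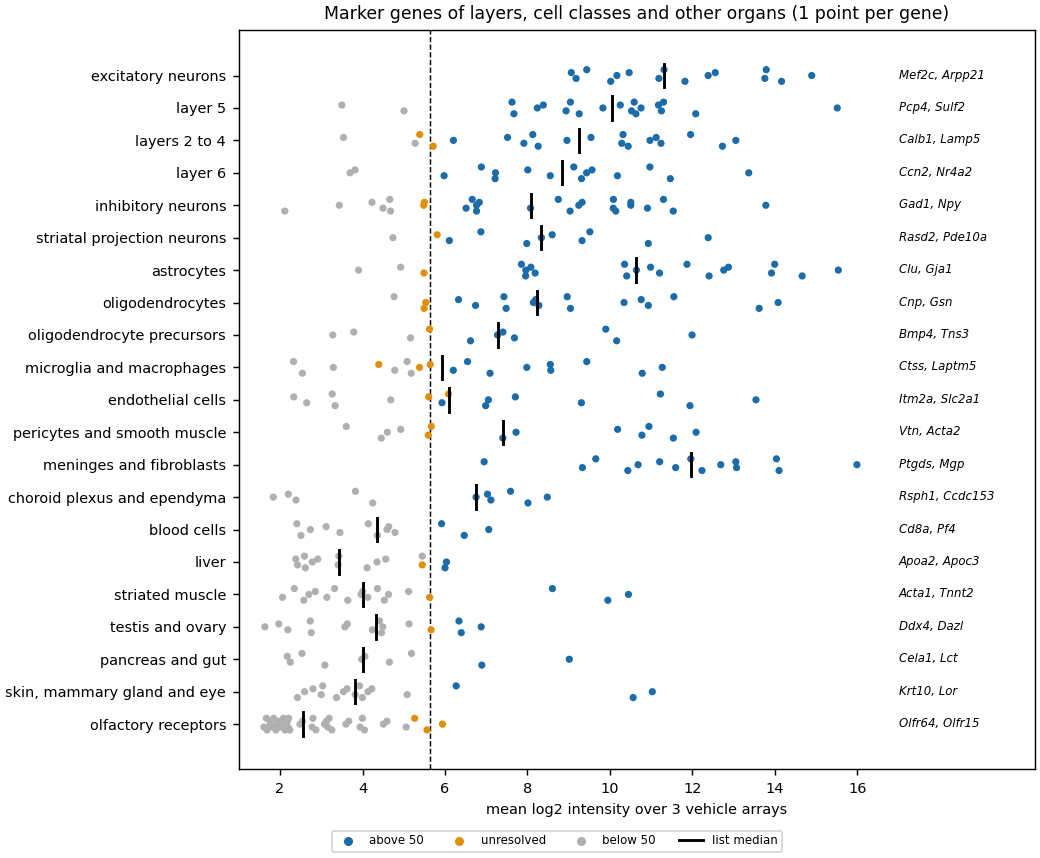
Mean log2 intensity over 3 vehicle arrays for each marker gene, by layer, cell class or organ, with colours for the call against an intensity of 50 (dashed line), a black bar at the list median and the highest genes named at right. The list medians were 11.96 for meninges and fibroblasts and 11.31 for excitatory neurons, and markers of blood and other organs lay mostly below the level.

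Markers of the cell layers that cover the brain were high. All 15 markers of meninges and fibroblasts were above 50, against 65.1% of all genes. Their median was 11.96, against 11.31 for excitatory neurons, and in each of these 2 lists 6 of 15 were in the highest 10% of genes. The lists were chosen with earlier results of these data known, so the counts and medians describe the chosen genes and test nothing. Ptgds was followed by Mgp (13.98, 14.23 and 14.10), which encodes matrix Gla protein, Aldh1a2 (14.02, 14.01 and 14.09), the retinoic acid enzyme of meningeal fibroblasts, and Dcn (12.95, 13.24 and 13.02), the proteoglycan decorin. Igf2 (12.89, 13.13 and 13.15), Igfbp2 (12.44, 12.72 and 12.91), Crabp2 (12.23 ± 0.12) and Foxc1 (11.96 ± 0.10), a transcription factor of meninges and vessel walls, were also high. The fibrillar collagen genes Col1a2 (11.59 ± 0.38), Col3a1 (9.66 ± 0.40, but 4.93 by its plain probe set) and Col1a1 (6.95 ± 0.19) and the transporter genes Slc6a13 (11.21 ± 0.20) and Slc22a6 (10.44 ± 0.26) were above. On the arrays the list averaged 11.62, 11.84 and 11.94, with vehicle 1 the lowest array for 12 of the 15 genes and vehicle 3 the highest for 11. How much of the signal of genes that these cells share with neurons, S100a10 and Anxa2 among them, came from each was not tested.

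Vessel wall cells gave fewer markers. Of 13 measured markers of pericytes and smooth muscle, 7 were above, with Vtn (11.83, 12.12 and 12.32), Acta2 (11.16, 11.36 and 12.10, but 2.46 by its plain probe set) and Pdgfrb (10.51, 11.08 and 11.24) highest, and Abcc9 (4.60 ± 0.20), Kcnj8 and Myh11 (3.61 ± 0.19) below. Acta2, Pdgfrb and Tagln (10.19 ± 0.21) are also made by fibroblasts. Of 15 endothelial markers, 8 (53.3%) were above. The highest, Itm2a (13.54 ± 0.28), Slc2a1 (11.94 ± 0.10) and Bsg (11.23 ± 0.23), are not restricted to endothelium. Among genes better known from endothelium, the transporter genes Abcb1a (9.31 ± 0.41) and Slco1a4 (7.71 ± 0.16), the VEGF receptor gene Kdr (7.05 ± 0.51) and the adhesion gene Esam (6.99 ± 0.12) were above. Others were near or under the level, with Cldn5 at 5.91, 5.90 and 5.98, Cdh5 at 5.75, 6.11 and 6.40, Flt1 at 5.53, 5.46 and 5.83, Tie1 at 2.63, 2.60 and 2.71 and Pecam1 at 2.34, 2.32 and 2.33. Choroid plexus and ependyma markers were divided, 6 of 11 above, and Ttr, the most abundant choroid plexus message, read 6.36, 6.58 and 7.33. Folr1 (2.20 ± 0.095) and Otx2 (2.39 ± 0.014) were below.

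Glial markers ranged widely. Of 21 astrocyte markers 18 (85.7%) were above 50, with a median of 10.64. Clu (15.47, 15.50 and 15.66), the gap junction gene Gja1 (14.48, 14.74 and 14.77) and Apoe (13.80, 14.01 and 14.18) were highest, all of them made by other cells too. Glul, glutamine synthetase, measured 13.92 ± 0.10, and the glutamate transporter genes Slc1a2 and Slc1a3 12.41 ± 0.16 and 10.36 ± 0.16. Aldh1l1 measured 10.64 ± 0.21, or 3.12 by its plain probe set, and Aqp4, the water channel, 8.02, 8.20 and 8.04. Gfap read 5.38, 5.55 and 5.55 and was unresolved. Of 18 oligodendrocyte markers 15 were above with a median of 8.24, led by Cnp (14.08 ± 0.042), Gsn (13.62 ± 0.18) and the myelin gene Mbp (11.30, 11.62 and 11.73). Mag (8.28 ± 0.16) and Mobp (8.14 ± 0.31) were lower, Mog (5.49 ± 0.27) unresolved and Myrf below. Precursor markers were above in 7 of 11 cases, with Pdgfra, which fibroblasts also make, at 9.90 ± 0.17, and Cspg4 at 7.41 ± 0.30.

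Microglia and macrophages had 9 of 18 markers (50%) above 50, against 65.1% of all genes. This was the lowest share among the lists of brain cells, and their median was 5.92, close to the level. Ctss (11.27 ± 0.18), Laptm5 (10.78 ± 0.36) and Csf1r (9.34, 9.47 and 9.52) were highest, and Tmem119 measured 8.55 ± 0.35. C1qb (8.565), Tyrobp (7.985), Cx3cr1 (7.09), Fcer1g (6.55) and C1qa (6.20) were above as well. Of the 6 markers below 50, P2ry12 (2.11, 2.77 and 2.10) and Itgam (2.49, 2.65 and 2.49) were lowest, each by 1 probe set. The pan-leukocyte gene Ptprc (3.798, 5.49 and 3.90) was unresolved. Of 13 blood cell markers 3 (23.1%) were above, Cd8a (7.06 ± 0.015), Pf4 (6.47 ± 0.29) and Cd79a (5.92 ± 0.053), and the T cell genes Cd3e and Cd3g were below.

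Immediate early genes, which neurons switch on within minutes of activity, were mostly high in these animals. All 24 measured were above 50, against 65.1% of all genes, and 7 were in the highest 10% of genes. The list median was 11.645, against 8.079 for all genes, but Btg2 (7.675), Npas4, Bdnf (7.14) and Fosb were under 8.079. Egr1 read 14.28, 14.54 and 14.31, Fos 14.18, 14.47 and 14.30, Egr3 13.92, 13.92 and 14.01 and Dusp1 12.90, 13.89 and 13.08. Arc, a regulator of AMPA receptor uptake, read 11.18, 12.42 and 11.52, Npas4, a factor of activity-dependent inhibition, 7.18, 8.70 and 6.56, and Fosb 6.20, 5.95 and 6.59. Vehicle 2 was the highest array for 17 of the 24. The list averaged 10.92, 11.35 and 10.99 on the 3 arrays.

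Sex-linked genes agreed on the 3 arrays, for which the labels give no sex. The Y-linked genes Eif2s3y (10.81, 11.02 and 10.39) and Kdm5d (7.44, 7.63 and 7.09) were above 50 on every array, Uty (5.91, 6.97 and 5.88) was unresolved, and Xist, which is made from the inactive X chromosome in females, was below on every array (4.70, 4.38 and 5.04). Of 10 measured nuclear and non-coding transcripts, which are not translated, 6 (60%) were above 50, against 65.1% of all genes, the highest being Malat1 at 9.85, 8.85 and 6.99, with Meg3 at 7.71 ± 0.42 and Neat1 at 7.75 ± 0.15, and Kcnq1ot1 and Mirg below. Norad, a cytoplasmic long non-coding RNA outside this list, was much higher and ranked 18 by plain probe sets, at 15.07, 15.09 and 15.01.

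The 3 arrays differed in a few ways that ran across gene lists. For probe sets above 50, vehicle 2 lay 0.057 above the mean of the 3 in the median, vehicle 1 at -0.031 and vehicle 3 at -0.012. Vehicle 1 was the lowest array for 37 of 42 ribosomal protein genes above 50 and for 62 of 74 oxidative phosphorylation genes. Vehicle 3 was the lowest for 18 of 25 postsynaptic genes and for all 4 AMPA receptor genes. Pairs of arrays correlated at 0.997, 0.996 and 0.995 across probe sets, a description over 45037 probe sets that share their arrays. The cause of these differences was not tested.

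**Figure D5:**
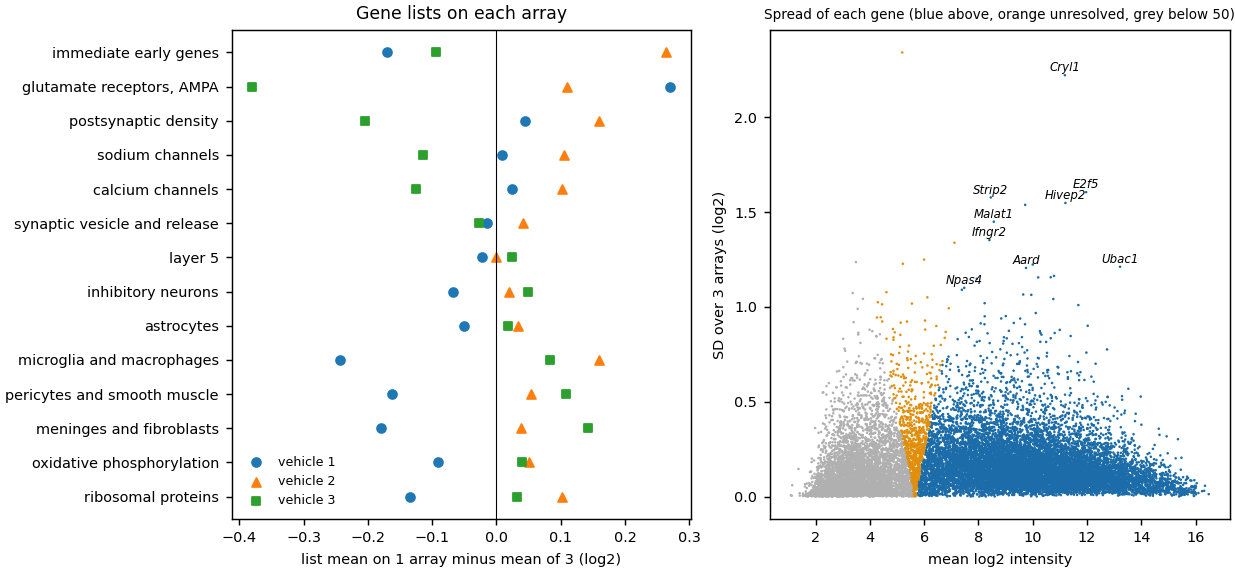
Left, the mean of a gene list on 1 vehicle array minus its mean over 3, in log2, by list. Right, the SD over 3 arrays of each gene against its mean log2 intensity. Vehicle 2 was highest for immediate early genes, vehicle 3 lowest for AMPA receptor and postsynaptic genes and vehicle 1 lowest for ribosomal, meningeal and pericyte genes, while the median SD of genes above 50 was 0.143.

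Some single genes varied more. The largest SD among the genes at or above 50 belonged to Cryl1, a crystallin-like dehydrogenase, whose brightest probe set read 12.48, 8.62 and 12.46, low on vehicle 2. Its 3 other probe sets hardly moved, at 9.98, 9.97 and 10.11 for the brightest of them. E2f5, a transcription factor of the cell cycle, had the same pattern, 12.78, 10.12 and 13.01 by one probe set and 9.77, 9.95 and 9.65 by another. Pik3cd (11.36, 9.33 and 11.30) and Aif1l (11.34, 9.56 and 11.38) were low on vehicle 2 too. In contrast Strip2 (8.35, 10.08 and 6.93), Hivep2 (11.02, 12.84 and 9.76), Ccn1 (6.27, 8.66 and 6.42), Npas4, Exph5 (10.11, 11.40 and 9.10) and Tenm1 (9.32, 10.84 and 8.79) were highest on vehicle 2, and the second probe set of Hivep2 ran in parallel, at 8.71, 10.52 and 7.10. Ubac1 (12.51, 12.53 and 14.62) stood out as high on vehicle 3 and Aard (8.38, 10.65 and 10.23) as low on vehicle 1. Malat1, Ifngr2 (9.85, 8.20 and 7.16), Cap1 (11.71, 11.16 and 9.48), Smc6 (10.57, 10.83 and 8.59), Epha5 (10.27, 10.81 and 8.76), Efcab1, Zfp994 and Zfp991 were lowest on vehicle 3.

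Probe sets of 1 gene often disagreed about whether it was above 50. Of 9010 genes with several probe sets, 4211 (46.7%) had at least 1 above and 1 below. The largest gap was that of Ndn, an imprinted gene of neurons, with 5 of its 8 probe sets above and 3 below and means from 1.57 to 15.69. Tpt1, Fscn1, Mff, Arf1, Mdh1, Ran, App, Eif4h and Sod1 followed, with gaps between their highest and lowest probe sets from 14.02 for Tpt1 to 13.10 for Sod1 on the log2 scale.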

How the data were processed

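Cortical RNA from TRAP purification was amplified in 2 cycles from 15 ng and hybridized to Affymetrix arrays, per the labels' protocols. The deposited values are linear intensities per probe set, which the authors normalized by GCRMA according to the design text and the submitters' processing notes, where no version is stated. Arrays give no read depth, and their number, 3, limits the precision. The deposited intensity was taken to log2 without a pseudocount. Of 45101 probe sets, 64 controls were left out. The platform annotation gave 34945 probe sets 1 gene symbol, 932 several and 9160 none, and the brightest probe set with 1 symbol stood for each gene. Listed genes without such a probe set were not analysed here.

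An intercept was fitted to the 3 vehicle arrays with limma 3.58.1 in R 4.3.3 (lmFit and eBayes), and each mean was tested against log2 of 50, with Benjamini-Hochberg adjustment over 45037 probe sets. No groups were compared. On data simulated from the vehicle arrays, probe sets set 1 log2 unit above or below the level were called correctly in 99.8% and 98.5% of cases, and 95.7% of those at the level were left uncalled. The simulation drew normal errors with each probe set's own variance, as the test assumes. The sets moved were picked at random, and genes below 50 had a median SD of 0.0744, against 0.143 above. The rates describe that model and cannot show the accuracy for real genes near the level.

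Named are S100a10, the 30 highest genes, the highest members and well known members below 50 of each list, the 20 genes with the largest SD, the 10 with the largest gap between probe sets and genes of other organs above 50. Other members were named after their values were seen. The members and lists were chosen with earlier results of these data known. Alternatives were another level (100 or 32), no test, a variance trend with robust fitting, an offset of 16, quantile normalization, plain probe sets, the mean of a gene's probe sets, the fluoxetine arrays, and leaving out each array. Start sites came from RefSeq's promoter table (GRCm38.p6), which held 14452 of 18193 genes.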

Additional observations from a re-analysis of the deposited data

How the results depend on the processing

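No paired analysis was possible because only the vehicle group is described and no groups were compared. The number of genes above 50 ranged from 10157 with plain probe sets to 12653 at a level of 32, against 11842 as reported, and at a level of 100 it was 10694. Leaving out 1 array gave 11598 to 11750 genes above 50 and an S100a10 level of 15.12 to 15.19. The S100a10 level was 12.08 with plain probe sets and 10.69 with the mean of its probe sets. The choice of probe set also moved the order of the highest genes, whereas quantile normalization left 29 of the 30 shared. Another level cannot change that order, because genes are ordered by their mean. With the mean of probe sets, 3 serotonin receptor genes were above 50. At a level of 32, 2 olfactory receptor genes and 4 liver genes were above. On the 3 fluoxetine arrays 11829 genes were above 50, of which 11689 were shared with the vehicle arrays. Leaving out vehicle 1, 2 or 3 ended the call of 22, 13 and 5 of 382 named genes. Some named genes crossed the level, in mean log2 intensity. At a level of 100 these were Adra2c 6.17, Apoa2 6.04, Apoc3 6.00, Cd79a 5.92, Chrna3 6.15, Cldn5 5.93, Dazl 6.39, Fosb 6.25, Grin2d 6.04, Krt5 6.27, Oxtr 6.59, Pdyn 6.11, Pf4 6.47 and Prm1 6.34. At a level of 32 they were Alb 5.45, Chrnb1 5.33, Chrnd 5.18, Grin3b 5.25, Inhba 5.28, Lratd2 5.01 and Oprd1 5.03. With plain probe sets they were Acta2 2.46, Aldh1l1 3.12, Anxa2 2.61, App 1.75, Arf1 1.66, Col3a1 4.93, Gabrd 4.81, Grik1 2.77, Hspa8 4.03, Mff 2.10, P2rx4 4.96, Rpl35 2.41, Rpl41 4.57, Tnnt2 3.24, Tpt1 1.55 and, barely under the level, Tsc22d1 5.64. With the mean of probe sets they were Acta2 5.47, Adra2c 4.34, Aqp4 5.24, Cd8a 3.83, Chrna3 4.22, Grin2d 3.75, Hltf 5.44, Htr1a 5.36, Htr5a 5.03, Htr7 5.40, Kcnk3 4.58, Kdm5d 4.50, Lhx6 5.25, Met 5.37, Npy1r 4.80, Oxtr 4.51, Pik3cd 4.88, Prm1 4.02, Syt2 5.45, Tle4 5.55, Vmn2r29 5.61 and Zfp991 5.29. On the fluoxetine arrays they were Fosb 5.55 and Inhba 5.72. In the other settings run, no named gene changed its side.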
